A study of Homo sapiens with 44 samples.

Results

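Oncostatin M (OSM) and tumour necrosis factor (TNF) were compared directly for the chromatin they leave accessible in colon fibroblasts. All 8 libraries that the labels assign to OSM or TNF were taken, 4 for each, out of 44 in the series, and 407174 of 407383 deposited peaks were tested, the other 209 being left out for low coverage. Accessibility was measured by ATAC-seq, in which a transposase cuts open chromatin and inserts sequencing adaptors. The cells were Ccd18-Co, a fibroblast line from human colon, so the results describe cultures of 1 line. They were starved in serum-free medium and then given OSM at 10 ng/ml or TNF at 10 ng/ml, and 4 unstimulated libraries of the same line in the same medium give the background. No genetic change was made in any group. Nothing in the labels says whether the 4 replicates of a group came from separate cultures, so p-values rest on a spread between libraries that may be technical. In the test of single peaks that spread was estimated over all 44 libraries, not these 8 alone. It was also drawn towards a trend with coverage level.

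OSM is a cytokine of the IL-6 family that binds a receptor made of OSMR and the shared subunit gp130 (IL6ST). Its receptor activates JAK kinases, which phosphorylate STAT3, and STAT3 binds palindromic DNA sites and induces its own inhibitor SOCS3. TNF signals through TNFR1 and the adaptors TRADD, RIPK1 and TRAF2 to the IKK complex, which releases NF-κB from its inhibitor IκBα (NFKBIA). NF-κB induces chemokines, adhesion molecules and its own inhibitors, among them NFKBIA and A20 (TNFAIP3). Both cytokines act on stromal cells of the inflamed bowel.

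The sequences below come from peaks with the largest differences, shown because they carry the short strings on which the 2 groups of peaks parted. They were read from hg38 on the plus strand. Each is a window of 100 bases around the string nearest the peak centre. In the peaks higher with OSM, capitals mark a STAT3 string (TTCCNGGAA) or the looser GAS string (TTCNNNGAA, which contains the STAT3 string). In the peaks higher with TNF, capitals mark the match to the NF-κB consensus nearest the peak centre. Other or overlapping matches in a window stay in lower case, as gggacttccc does in the LINC02399 window.
AFAP1-AS1 peak, chr4:7824310-7824409: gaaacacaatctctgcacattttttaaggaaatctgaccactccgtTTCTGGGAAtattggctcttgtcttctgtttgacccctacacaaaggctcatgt
IL7R peak, chr5:35784565-35784664: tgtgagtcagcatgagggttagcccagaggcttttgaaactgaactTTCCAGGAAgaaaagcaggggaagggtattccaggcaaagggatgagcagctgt
CACNA2D3-AS1 peak, chr3:54873291-54873390: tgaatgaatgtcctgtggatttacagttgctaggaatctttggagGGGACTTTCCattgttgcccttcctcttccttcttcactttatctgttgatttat
SLC36A3 peak, chr5:151270758-151270857: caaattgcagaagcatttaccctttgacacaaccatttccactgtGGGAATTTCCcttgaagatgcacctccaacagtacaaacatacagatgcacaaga
LINC02399 peak, chr12:89960295-89960394: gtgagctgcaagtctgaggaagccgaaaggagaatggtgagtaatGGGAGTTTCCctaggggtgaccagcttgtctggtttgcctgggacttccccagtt

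The deposited table gave read coverage summed over 407383 peaks of 500 bases. Total coverage came to 553 ± 99.3 Mb in the OSM libraries (SD, n = 4), 468 ± 173 Mb in the TNF libraries and 414 ± 81.6 Mb in the unstimulated libraries. The TNF mean rests on replicate 4, which held 726.6 Mb against 373 to 389 Mb in the other 3. Values below are coverage per Mb of a library's total after a composition factor, and differences are OSM minus TNF, taken as log2(coverage per Mb + 0.5), so that the change of a low peak comes out too small. In these units 3 reads of 75 bases amount to between 0.334 and 0.521 in an OSM library and between 0.310 and 0.611 in a TNF library, counting error only. Start sites of fibroblast markers were accessible in every library, with a summed coverage over 10 genes of 171 to 183 with OSM, 137 to 148 with TNF and 150.0 to 168 unstimulated. Of the other cell types, 2 of 6 epithelial markers had a start-site peak, with a sum of 0.865 to 2.16 with OSM and 1.03 to 2.93 with TNF. Start-site peaks of 4 endothelial markers summed to 1.09 to 3.20 and 3.51 to 5.57, those of 2 smooth muscle markers to 1.35 to 2.76 and 2.00 to 3.20, and those of 3 glial markers to 0.456 to 1.65 and 0.766 to 1.62. Among the immune markers only CD68 had a start-site peak, at 35.3 to 45.9 with OSM, 28.4 to 35.1 with TNF and 24.2 to 28.1 unstimulated, while PTPRC, CD3E, SPI1 and LYZ had none. The part that the marker sums play in the results was not tested. In bulk libraries, fewer accessible cells and less accessibility per cell cannot be told apart.

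A tested peak was called where the adjusted p of limma's test (Benjamini-Hochberg over 407174 peaks) was under 0.05, which held for 23167 peaks, or 5.69%. OSM libraries were higher at 10020 of these (2.46% of tested peaks) and TNF libraries at 13147 (3.23%). The 4 OSM and the 4 TNF libraries did not overlap at 53675 tested peaks (13.2%), a share that was 89.0% of the peaks called higher with OSM and 90.7% of those called higher with TNF. Differences were larger on the TNF side. A difference of at least 1 on the log2 scale held for 4721 calls higher with OSM and 9992 higher with TNF, at least 2 for 247 and 1194, and at least 3 for 7 and 155.

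**Figure D1:**
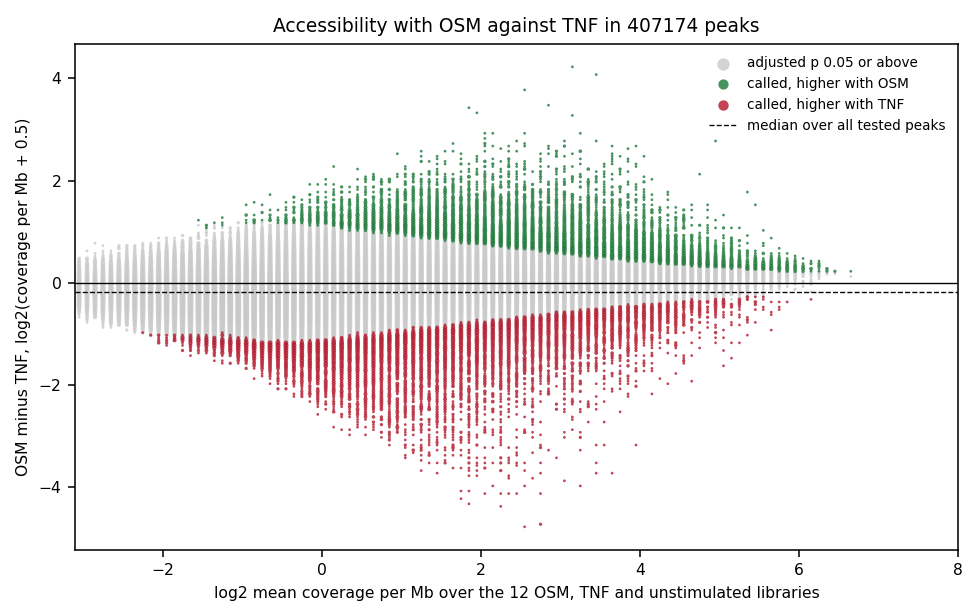
Difference in accessibility, OSM minus TNF on the log2(coverage per Mb + 0.5) scale, against the log2 mean coverage per Mb over the 12 OSM, TNF and unstimulated libraries. Points are bins of tested peaks, with 10020 peaks called higher with OSM in green, 13147 called higher with TNF in red and the others in grey; at low coverage the called peaks are nearly all red, and the dashed line is the median of -0.186.

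The direction of the calls moved with the level of the peak. Among peaks with a mean coverage under 1 per Mb, 181 were called higher with OSM and 2762 higher with TNF, and the median difference was -0.282. Between 1 and 5 per Mb the counts were 3821 and 6666, with a median of -0.069. At 5 per Mb and above they were 6018 and 3719, so that 61.8% of calls were higher with OSM, and the median was 0.109. Over all tested peaks the median difference was -0.186, and loess offsets, which remove such a dependence on level, moved it to 0.0090. Of the called peaks, 16419, or 70.9%, were called in the same direction under all 5 scalings, 7234 higher with OSM and 9185 higher with TNF. OSM libraries left 13.8 ± 3.29% of the deposited peaks without coverage (SD, n = 4) and TNF libraries 8.22 ± 3.26%, a difference that an exact two-sided permutation test did not call (p = 0.0857).

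Beside the unstimulated libraries, the peaks called between OSM and TNF lay on both sides of the starting level. Peaks higher with OSM had a median difference of 0.97 between the 2 cytokines, of 0.40 between OSM and unstimulated and of -0.50 between TNF and unstimulated. Their median coverage was 8.75 per Mb with OSM, 6.37 unstimulated and 4.05 with TNF. Peaks higher with TNF had medians of -1.24, -0.40 and 0.83 in the same order, with a coverage of 1.21 with OSM, 1.80 unstimulated and 4.20 with TNF. Over all tested peaks the medians against unstimulated were -0.216 for OSM and -0.039 for TNF. These contrasts share libraries with each other, so the values are set side by side as a description.

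The largest difference in favour of OSM lay beside SOCS3, the gene of the STAT3-induced inhibitor of JAK signalling. This peak (chr17:78354897-78355397, intergenic, 4930 bases from the SOCS3 start site) had coverage of 26.0, 27.2, 19.7 and 21.5 per Mb in the OSM libraries and of 0.574, 1.49, 0.662 and 0.639 in the TNF libraries. The groups lay far apart, with a fold of means of 28.1 and a difference of 4.21 ± 0.32 (± SE, limma adjusted p = 2.47e-27). Unstimulated libraries held between 1.20 and 2.41, so the level with OSM stood above both other groups. None of the 8 strings searched occurred in these 500 bases, which says only that these letters are not in this window.

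Of the other 9 peaks named for the largest differences towards OSM, 8 lay in introns and 1 in an exon, often inside a gene other than the one in the deposited name. The IGSF23-named peak lay in an intron of the pseudogene CEACAM22P and held 2 STAT3 strings. It shares stretches of identical letters with the CXCL17 and BRI3 peaks described next, and how reads that map to more than 1 place were treated was not tested. Its coverage was 16.1, 19.0, 20.5 and 16.8 with OSM and 0.772, 1.86, 1.99 and 0.548 with TNF, a difference of 3.47 ± 0.27 (limma adjusted p = 1.21e-26). In the AFAP1-AS1-named peak (chr4:7824210-7824710), within an intron of AFAP1, an actin filament-associated protein gene, coverage was 9.75, 6.26, 8.22 and 4.55 with OSM against 0 to 0.392 with TNF, which puts it at least 13.7-fold higher when the TNF mean is set to the group's mean value of 3 reads. Unstimulated libraries held 2.75 to 3.67 there, so they lay between the cytokines. The CXCL17-named peak lay in an intron of the antisense gene LIPE-AS1 and differed by 3.30 ± 0.36 (8.27 to 10.3 with OSM, 0 to 1.37 with TNF). A further peak named for LOC100506403 (chr21:35326583-35327083) lay in an intron of RUNX1, a transcription factor gene, with 16.8 to 20.6 with OSM, 0.885 to 2.21 with TNF and 5.22 to 7.01 unstimulated.

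The peak named for CEBPD, which encodes a C/EBP transcription factor of the acute-phase response, was 3512 bases from the CEBPD start site, in an intron of SPIDR (chr8:47734402-47734902). Its values were 15.9, 19.3, 15.6 and 17.8 with OSM, 1.71, 1.17, 2.65 and 2.09 with TNF and 8.12 to 11.7 unstimulated. Here the unstimulated libraries were closer to OSM, with a difference of 0.75 between OSM and unstimulated and of -2.16 between TNF and unstimulated, against 2.91 ± 0.21 between the cytokines (limma adjusted p = 5.33e-30). The ERCC1-named peak (chr19:45473237-45473737) lay in the untranslated part of an exon of FOSB, an AP-1 subunit gene, with 10.7 to 12.9 with OSM and 0.359 to 1.94 with TNF. The remaining 3, named for IL7R (chr5:35784303-35784803, an intron of SPEF2), BRI3 (an intron of BRI3) and C15orf53 (chr15:38865410-38865910, an intron of LINC02694), differed by 2.92, 2.92 and 2.85. Across these 3 peaks every OSM library was at 8.62 or above and every TNF library at 2.35 or below.

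**Figure D2:**
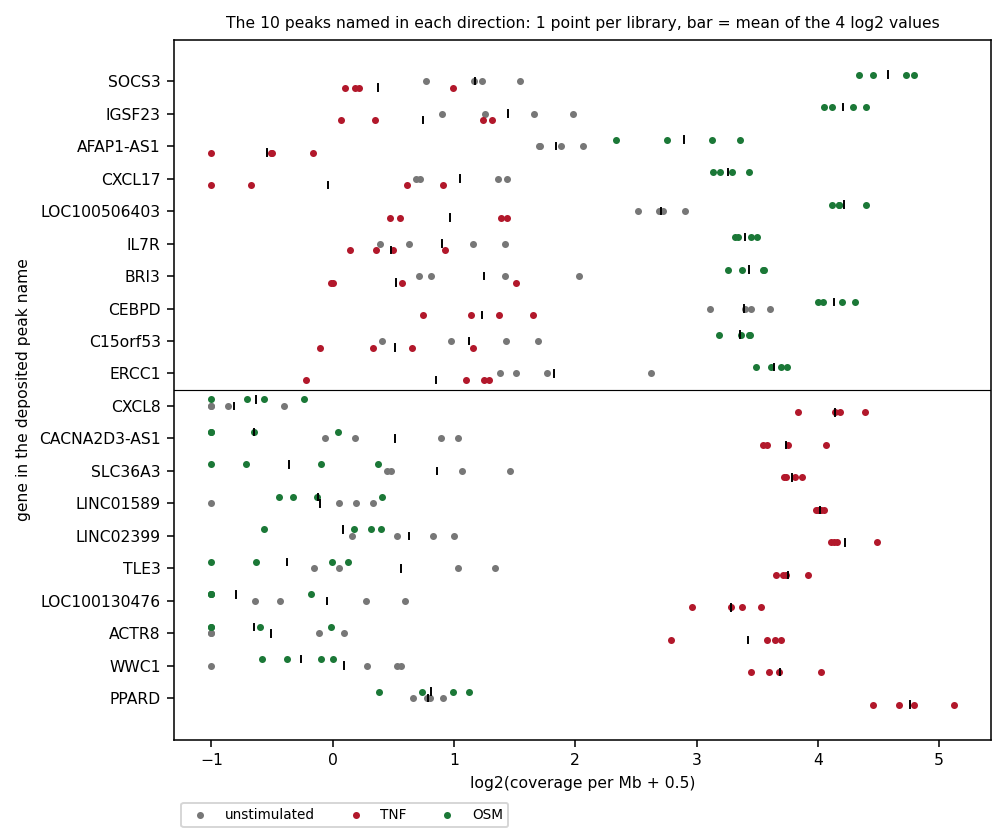
Coverage of the 10 peaks named in each direction, as log2(coverage per Mb + 0.5), with a point for each OSM (green), TNF (red) and unstimulated (grey) library and a bar at the mean of the 4 log2 values. In the upper 10 peaks the OSM libraries stand apart to the right, with unstimulated libraries clearly between the groups at AFAP1-AS1, LOC100506403 and CEBPD; in the lower 10 the TNF libraries stand apart to the right of both other groups.

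The largest difference towards TNF lay in CXCL8, which encodes interleukin-8, a chemokine that recruits neutrophils. The peak at chr4:73742531-73743031, in the untranslated part of an exon 2212 bases from the start site, had 20.5, 17.7, 17.1 and 13.8 in the TNF libraries. OSM libraries held 0, 0.111, 0.174 and 0.350, each at or under 3 reads, and unstimulated libraries 0 to 0.255. TNF was thus at least 42.0-fold higher against that floor, with a difference of -4.77 ± 0.39 (limma adjusted p = 4.14e-24). At this depth OSM could not be told from the unstimulated state at this peak.

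Of the other 9 peaks named towards TNF, 7 lay over 10 kb from a start site. The CACNA2D3-AS1-named peak (chr3:54873125-54873625) was in an intron of CACNA2D3, a calcium channel subunit gene, with 11.2 to 16.3 with TNF and 0 to 0.528 with OSM. An intergenic peak named for SLC36A3 (chr5:151270504-151271004) had 12.7 to 14.1 with TNF and 0 to 0.793 with OSM. The LINC01589-named peak (chr22:45600735-45601235) lay in the untranslated part of an exon of FBLN1, a matrix glycoprotein gene, with TNF libraries between 15.4 and 16.1 and OSM libraries between 0.237 and 0.822. An intergenic peak named for LOC100130476 (chr6:137884080-137884580), 16097 bases from the start site of the noncoding gene WAKMAR2, had 7.28 to 11.1 with TNF against 0.383, 0, 0 and 0 with OSM, or at least 22.8-fold higher. Named for PPARD, a nuclear receptor gene, an intronic peak (chr6:35368049-35368549) had 21.5 to 34.4 with TNF, 0.803 to 1.69 with OSM and 1.08 to 1.38 unstimulated. The other 4, named for LINC02399 (chr12:89960070-89960570), TLE3 (chr15:70140615-70141115), ACTR8 (chr3:53885191-53885691, the untranslated part of an exon of SELENOK) and WWC1 (chr5:168289822-168290322), differed by -4.14, -4.13, -4.08 and -3.95. OSM differed from unstimulated by between -1.22 and 0.19 over the 10 peaks named towards TNF. All 20 named peaks were called in each of 24 alternatives.

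Most called peaks stood alone, and a small number of loci held many. With peaks of 1 direction joined where they lay within 10 kb of the next, 7901 runs were higher with OSM and 10307 higher with TNF, of which 6571 and 8441 held a single peak and 69 and 73 held 5 or more. The 5 runs with the most peaks in each direction are described here, with coverage summed over all tested peaks inside each run. They were chosen by their calls, so the sums are a description.

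On the OSM side the run with the most called peaks covered THBS1, which encodes the matrix glycoprotein thrombospondin-1 (chr15:39580789-39601164). All 29 tested peaks inside it were called higher with OSM, with a median difference of 1.86. Summed coverage was 582, 586, 549 and 543 with OSM and 162, 176, 165 and 138 with TNF, and 228 to 297 unstimulated. The unstimulated sums fell between the groups. The SOCS3 run (chr17:78342326-78390822) held 26 called of 55 tested peaks, with sums of 561, 585, 531 and 547 with OSM, 228, 252, 232 and 224 with TNF and 270 to 279 unstimulated, so here TNF was closer to unstimulated. The FOS run (chr14:75258044-75296021), around an AP-1 subunit gene, held 19 called of 38 tested peaks. Its sums were 404 ± 10.9 with OSM (SD, n = 4), 191 ± 13.1 with TNF and 298 ± 18.7 unstimulated.

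The other OSM runs were at IGFBP5, which encodes an insulin-like growth factor-binding protein secreted by fibroblasts, and at NNMT, which encodes nicotinamide N-methyltransferase. At IGFBP5 (chr2:216670435-216695828) 22 of 29 tested peaks were called, and sums were 273 ± 24.8 with OSM, 128 ± 2.97 with TNF and 239 ± 9.63 unstimulated. Median differences of its called peaks were 0.17 for OSM against unstimulated and -1.16 for TNF against unstimulated. At NNMT (chr11:114294857-114316311) 20 of 24 were called, with sums of 167 ± 8.09, 80.4 ± 11.4 and 108 ± 8.62 in the same order.

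On the TNF side the run with the most peaks spanned WAKMAR2 and TNFAIP3, the gene of the NF-κB inhibitor A20 (chr6:137865967-137895438). Of 37 tested peaks 22 were called higher with TNF, and summed coverage was 126, 112, 125 and 129 with TNF, 34.9, 43.6, 42.2 and 40.2 with OSM and 39.0 to 51.3 unstimulated. OSM and unstimulated libraries overlapped there. At CXCL8 (chr4:73721359-73748267) 18 of 22 tested peaks were called, with sums of 211, 198, 180 and 178 with TNF, 20.8 to 26.7 with OSM and 20.7 to 23.7 unstimulated. At NFKBIA (chr14:35366090-35416520) 15 of 59 were called, with sums of 239 ± 9.27 with TNF, 121 ± 6.77 with OSM and 132 ± 6.59 unstimulated. The run that the deposited names give to WTAP (chr6:159653846-159702123) held the start site of SOD2, the mitochondrial superoxide dismutase gene, with 20 of 63 tested peaks called higher with TNF and 2 called higher with OSM. Its sums were 157 ± 5.93 with TNF, 96.1 ± 1.15 with OSM and 96.5 ± 3.82 unstimulated. At TNC, the gene of the matrix protein tenascin-C (chr9:115106522-115136287), 16 of 28 were called, with sums of 149.7 ± 10.5, 81.7 ± 4.87 and 89.1 ± 7.17 in the same order.

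**Figure D3:**
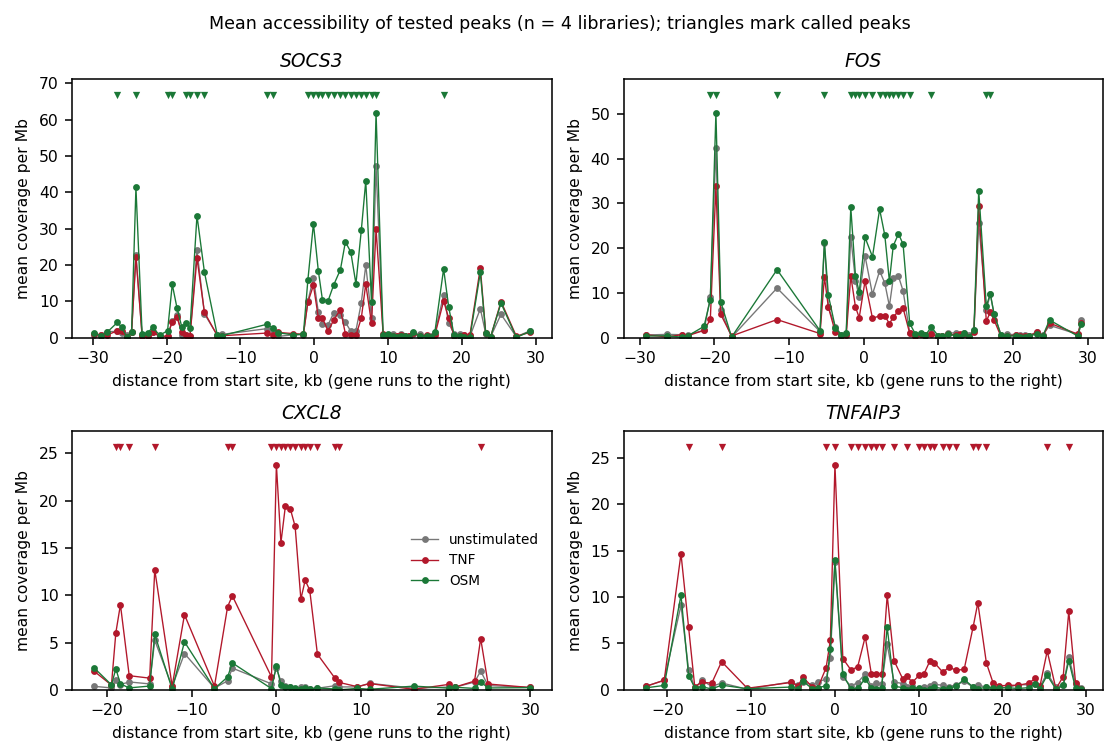
Mean coverage per Mb (n = 4 libraries) of tested peaks within 30 kb of the start sites of SOCS3, FOS, CXCL8 and TNFAIP3, against distance from the start site in kb, with OSM in green, TNF in red and unstimulated in grey; lines join neighbouring peaks. Triangles mark called peaks, which are 25 of 65 at SOCS3 and 19 of 55 at FOS, all higher with OSM, and 19 of 33 at CXCL8 and 24 of 53 at TNFAIP3, all higher with TNF.

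For the pathways of both cytokines, the peak nearest each gene's start site was taken, along with all peaks that the deposited names give to the gene. Of promoter-class peaks as a whole, 3.16% were called higher with OSM and 1.49% higher with TNF. None of 14 start sites of gp130-family receptors, JAK kinases and STAT factors was called in either direction by limma, and their median difference was 0.24, at or above 0 under all 5 scalings, which called at most 3 higher with OSM and 1 higher with TNF. At OSMR, the receptor subunit that pairs with gp130, start-site coverage was 28.7, 37.3, 36.0 and 27.2 with OSM and 20.6, 24.8, 29.2 and 28.6 with TNF. These groups overlapped, and the difference of 0.32 ± 0.11 was not called (limma adjusted p = 0.0818). It was called in 7 of 24 alternatives, among them without OSM replicate 4 or without TNF replicate 3, where limma's adjusted p lay between 0.0367 and 0.0476. None of the 27 peaks named for OSMR was called. Peaks named for the 14 genes were called higher with OSM in 1.64% and higher with TNF in 2.80%, near the shares over all peaks.

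Called start sites of STAT3 targets and feedback genes were all higher with OSM. Of 23 start sites, 7 were called higher with OSM and none higher with TNF, with a median difference of 0.30, and 5 to 7 were called under the 5 scalings. The SOCS3 start site (chr17:78359950-78360450) had 26.7, 34.8, 36.0 and 28.0 with OSM, 14.2, 13.2, 14.4 and 15.9 with TNF and 12.6 to 19.9 unstimulated. All OSM libraries exceeded all others, with a difference of 1.09 ± 0.14 (limma adjusted p = 3.02e-11). BCL6, a transcriptional repressor, had 11.6 to 18.0 with OSM and 5.96 to 7.60 with TNF, a difference of 1.00. Of the 73 peaks named for BCL6, 4 were called higher with OSM (largest 1.32) and 4 higher with TNF (largest -2.84). CISH, another SOCS-family inhibitor, had 9.33 to 10.8 and 4.68 to 6.75, a difference of 0.74. The CISH start-site peak carries the name MAPKAPK3, and of the 8 peaks named for CISH 1 was called in each direction. A2M, an acute-phase protease inhibitor, differed by 1.11 at low coverage (1.82 to 3.93 with OSM, 0.337 to 1.63 with TNF, 2.12 to 3.32 unstimulated). Its call was lost when 1 of 4 libraries was left out (OSM replicate 1 or 3, TNF replicate 2 or 3, adjusted p between 0.0654 and 0.174). Against unstimulated, OSM differed by 0.43 at BCL6, 0.21 at CISH and -0.12 at A2M, none of them called (limma adjusted p = 0.198, 0.592 and 0.883). TNF differed from unstimulated by -0.56, -0.53 and -1.24 in the same order, called at A2M alone (limma adjusted p = 0.0117). Of 665 peaks named for these 23 genes, 9.62% were called higher with OSM and 2.71% higher with TNF, against 2.46% and 3.23% of all peaks. SOCS3 accounted for 15 of the 64 OSM calls, from 48 tested peaks.

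TNF receptor signalling genes were called at few start sites. Of 16, 2 were called higher with TNF and none higher with OSM, and the median of 0.05 changed sign under other scalings, from -0.152 to 0.084. BIRC3, which encodes the ubiquitin ligase cIAP2 bound by TRAF2, had 29.8, 27.9, 27.4 and 26.5 with TNF and 8.0, 7.12, 5.53 and 7.46 with OSM. Its groups lay well apart, with a difference of -1.93 ± 0.19 (limma adjusted p = 4.10e-18). MAP3K8, a kinase that NF-κB p105 holds in check, differed by -0.58 (22.7 to 31.7 with TNF, 14.0 to 22.2 with OSM). Of the 54 peaks named for MAP3K8, 5 were called higher with TNF and 3 higher with OSM. Of 438 peaks named for the 16 genes, 6.85% were called higher with TNF and 4.34% higher with OSM, against 3.23% and 2.46% of all peaks.

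Among NF-κB subunits and inhibitors, 3 of 14 start sites were called higher with TNF, 6 at most under other scalings, and none higher with OSM. NFKB2, the p100 subunit gene, had 28.7, 22.3, 21.4 and 21.6 with TNF and 11.6, 12.9, 11.3 and 11.8 with OSM, a difference of -0.94. TNFAIP3 had 20.8 to 27.5 with TNF and 11.8 to 18.4 with OSM (-0.78). NFKBIA had 20.0 to 27.6 and 12.6 to 17.2 (-0.64). Of 492 peaks named for the 14 genes, 71 (14.4%) were called higher with TNF and 2 (0.407%) higher with OSM, with a median difference over the peaks of a gene of -0.60 at NFKB2, -0.68 at TNFAIP3 and -0.50 at NFKBIA.

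Neutrophil chemokine genes were called almost throughout. Of 6 start sites, 5 were called higher with TNF and none higher with OSM, with a median of -0.89, and the same counts held under all 5 scalings. At the CXCL8 start site (chr4:73740318-73740818) TNF libraries had 29.9, 26.4, 17.7 and 21.2, OSM libraries 2.38, 1.84, 3.24 and 2.60 and unstimulated libraries 1.83 to 3.05. TNF stood apart from both other groups, which overlapped, with a difference of -3.0 ± 0.30 (limma adjusted p = 1.34e-17). CXCL1 had 32.2 to 35.4 with TNF and 12.5 to 15.9 with OSM, a difference of -1.17. CXCL6 had 7.73 to 12.4 and 3.98 to 6.08 (-0.97), and CXCL5 7.14 to 12.3 and 3.26 to 6.72 (-0.82). The CXCL5 call was lost without OSM replicate 2 or without TNF replicate 1, with adjusted p between 0.101 and 0.171. Of 171 peaks named for the 6 genes, 31.6% were called higher with TNF and none higher with OSM. The uncalled start site was that of CXCL2, where the difference was -0.29.

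Other chemokine genes included the only one called towards OSM. Of 12 with a start-site peak out of 13 (CXCL9 had none), 4 were called higher with TNF and 1 higher with OSM. CXCL10, an interferon-inducible chemokine that attracts T cells, had 7.72, 8.83, 12.0 and 9.19 with TNF and 1.21, 0.243, 0.692 and 0.947 with OSM, a difference of -3.01 ± 0.32 (limma adjusted p = 6.73e-16). CXCL11, its neighbour, differed by -1.79 at low coverage (1.11 to 5.24 with TNF, 0 to 0.768 with OSM), and CCL2, a monocyte chemoattractant, by -0.91 (25.9 to 29.5 and 13.9 to 15.1). CCL11, eotaxin, differed by -0.88, and there OSM was lower than unstimulated by 1.06 on the log2 scale while TNF differed from it by -0.19. CXCL12, the homeostatic ligand of CXCR4, went the other way, with 6.15, 4.83, 4.26 and 3.86 with OSM, 1.34, 1.09, 1.90 and 2.09 with TNF and 2.05 to 3.14 unstimulated. Its difference was 1.33 ± 0.29 (limma adjusted p = 3.45e-04). The unstimulated mean of 2.53 fell between 4.78 with OSM and 1.61 with TNF, but unstimulated and TNF libraries overlapped. Neither cytokine was called against unstimulated there (limma adjusted p = 0.117 for OSM and 0.413 for TNF).

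Interleukin and growth factor genes were called towards TNF at 8 of 17 start sites (7 to 8 across scalings) and towards OSM at none, with a median of -0.69. IL32, a proinflammatory cytokine gene, had 13.4 to 14.5 with TNF and 1.99 to 4.47 with OSM, a difference of -2.04. CSF3, the gene of granulocyte colony-stimulating factor, had 3.67 to 4.69 and 0.885 to 1.13 (-1.59). INHBA, an activin subunit gene, had 17.7 to 22.1 and 7.36 to 9.40 (-1.21). TSLP, an alarmin gene, differed by -1.19 at low coverage (0.778 to 1.81 and 0.220 to 0.345), and its call was lost in 7 of the 8 fits that left out 1 library, all but the one without TNF replicate 4, with adjusted p between 0.0663 and 0.141. IL6 had 15.1 to 21.1 with TNF and 11.2 to 14.8 with OSM, a difference of -0.53 ± 0.16 (limma adjusted p = 0.0268). Its call was lost in 5 of the 8 such fits (OSM replicates 2, 3 and 4, TNF replicates 2 and 4, adjusted p 0.0741 to 0.132), and none of 16 peaks that carry its name was called. The start-site peak itself carries the name LOC541472, of whose 11 tested peaks 8 were called higher with TNF. Of 496 peaks named for the 17 genes, 17.3% were called higher with TNF and 2.62% higher with OSM, with LIF, the gene of another gp130 cytokine, at 16 and 3 of 48.

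Adhesion and surface genes divided. ICAM1, a leukocyte adhesion molecule induced by NF-κB, had 16.3, 17.8, 18.3 and 16.6 with TNF at its start site, 4.49, 3.14, 2.75 and 3.41 with OSM and 2.36 to 5.10 unstimulated. OSM overlapped with unstimulated, and TNF exceeded both, with a difference of -2.19 ± 0.26 (limma adjusted p = 3.08e-12). VCAM1, a related molecule, had 3.81 to 4.66 with TNF and 2.42 to 3.94 with OSM, groups that overlapped (-0.32 ± 0.28, limma adjusted p = 0.597). Of the 47 peaks named for VCAM1, 3 were called higher with OSM and 1 higher with TNF. PDPN, podoplanin, did not pass the test at its start site either (0.15 ± 0.20, limma adjusted p = 0.748), although 5 of its 38 peaks were called higher with OSM and none higher with TNF. THY1, a fibroblast surface protein, was called towards OSM, with 11.5 to 13.4 with OSM, 5.92 to 6.79 with TNF and 7.99 to 9.60 unstimulated (0.93). Those 2 were the called start sites among 8.

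Few start sites of AP-1 subunit genes were called. Of 13, 2 were called higher with OSM (1 to 2 across scalings) and none higher with TNF (1 at most). FOS had 23.4, 20.9, 20.9 and 24.4 with OSM and 12.4, 13.0, 11.7 and 13.3 with TNF, against 14.2 to 23.1 unstimulated, a difference of 0.80 ± 0.14 (limma adjusted p = 6.40e-06). JUND differed by 0.41 (21.7 to 33.7 with OSM, 20.1 to 21.5 with TNF). Its call did not hold under promoter-class scaling, loess offsets or the GC correction, and it was lost in 7 of the 8 fits that left out 1 library, all but the one without OSM replicate 4 (adjusted p 0.0547 to 0.235). Of 387 peaks named for these genes, 36 (9.30%) were called higher with OSM and 2 (0.517%) higher with TNF, of which FOS held 17 of 41 on the OSM side.

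Start sites of inflammatory fibroblast, matrix and protease genes went both ways, while peaks named for these genes were called more often higher with TNF. Among 16 start sites of metalloproteinases and inhibitors, 4 were called higher with TNF and 1 higher with OSM, and the list median changed sign across scalings. Of 589 peaks named for the 18 genes of this list, 6.62% were called higher with TNF and 1.87% higher with OSM, against 3.23% and 2.46% of all peaks. MMP3, stromelysin-1, had 9.67 to 10.7 with TNF, 2.71 to 4.04 with OSM and 4.89 to 5.89 unstimulated (-1.42). MMP9 differed by -1.50 at low coverage (1.15 to 2.27 and 0 to 0.671), MMP2 by -0.59 and ADAMTS5 by -0.56. At ADAMTS5, TNF differed from unstimulated by 0.05 and OSM by -0.51, so TNF stayed near the unstimulated level and OSM was lower. The MMP2 call was lost without OSM replicate 1 or 2 or TNF replicate 1 (adjusted p 0.0575 to 0.0867), and the ADAMTS5 call without OSM replicate 3 or 4 or TNF replicate 1 or 3 (0.0561 to 0.172). The MMP2 start-site peak carries the name LPCAT2, of whose 39 tested peaks 3 were called higher with OSM and 5 higher with TNF. None of the 13 peaks named for MMP2 was called. ADAMTS9 was called towards OSM (0.55), with 20.1 to 21.3 with OSM, 12.3 to 15.5 with TNF and 18.4 to 22.3 unstimulated, a call lost under the GC correction. Of the 154 peaks named for ADAMTS9, 6 were called higher with OSM and 7 higher with TNF. MMP1, interstitial collagenase, differed at its start site by -0.01 ± 0.21 (limma adjusted p = 0.989), with 8.48 to 10.5 with OSM and 7.82 to 10.9 with TNF. Of the 8 peaks named for MMP1, 2 were called higher with TNF (largest -1.44) and none higher with OSM.

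Of 14 genes associated with inflammatory fibroblasts, 3 start sites were called higher with TNF (MMP3, COL7A1 and CXCL5) and 1 higher with OSM (THY1), and the list median stayed between -0.196 and -0.029 over the scalings. Of 609 peaks named for these 14 genes, 7.39% were called higher with TNF and 4.27% higher with OSM. COL7A1, the anchoring fibril collagen gene, had 12.0 to 14.2 with TNF and 3.97 to 6.25 with OSM, a difference of -1.26. Among 18 collagen and matrix genes 3 start sites were called each way. Of 1061 peaks named for these 18 genes, 6.22% were called higher with TNF and 2.64% higher with OSM. COL6A3, a microfibrillar collagen gene, had 20.2 to 23.1 with OSM and 10.4 to 14.1 with TNF (0.82), LOX, a collagen crosslinking enzyme gene, 16.4 to 18.6 and 9.44 to 13.5 (0.60), and COL12A1 32.6 to 39.6 and 23.7 to 29.5 (0.38). Of the 142 peaks named for COL6A3, 7 were called higher with OSM and 4 higher with TNF. For COL12A1 these counts were 2 and 2 of 104. TNC had 16.8 to 19.4 with TNF and 6.49 to 10.5 with OSM (-0.99), and 22 of its 72 peaks were called higher with TNF and none higher with OSM. Unstimulated libraries held 10.6 to 15.8 at the TNC start site, from which OSM differed by -0.58 and TNF by 0.41. FBN1, fibrillin-1, differed by -0.38. The COL12A1 call was lost without OSM replicate 2 or TNF replicate 1 (adjusted p 0.116 to 0.129) and under 2 scalings, and that of FBN1 without any of 5 libraries (OSM replicates 3 and 4, TNF replicates 1, 2 and 4, adjusted p 0.0583 to 0.184) and with library totals. Among the fibroblast marker genes, 4 of 10 start sites were called higher with OSM and 1 higher with TNF.

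Contractile and interferon genes were called at 1 start site each. CALD1, caldesmon, was higher with TNF by 0.35 in size at its start site (45.4 to 50.2 with TNF, 35.2 to 40.8 with OSM). It was the only start-site call among 11 contractile genes, and it was lost without OSM replicate 4 (adjusted p 0.0525). Of the 99 peaks named for CALD1, 4 were called higher with OSM (largest 1.80) and 1 higher with TNF. Of 352 peaks named for the 11 genes, 2.27% were called higher with OSM and 4.55% higher with TNF. ACTA2, smooth muscle actin, differed by 0.19 ± 0.14 at its start site (limma adjusted p = 0.535). Of the 12 peaks named for ACTA2, 2 were called higher with TNF and none higher with OSM. MX2, an antiviral GTPase, was the only one of 18 interferon-response genes called at its start site, with 12.3, 12.4, 12.6 and 8.95 with OSM and 5.79 to 7.96 with TNF (0.68). Its call was lost without TNF replicate 3 (adjusted p 0.0617). Of 277 peaks named for the interferon-response genes, 3.25% were called higher with OSM and 1.81% higher with TNF.

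**Figure D4:**
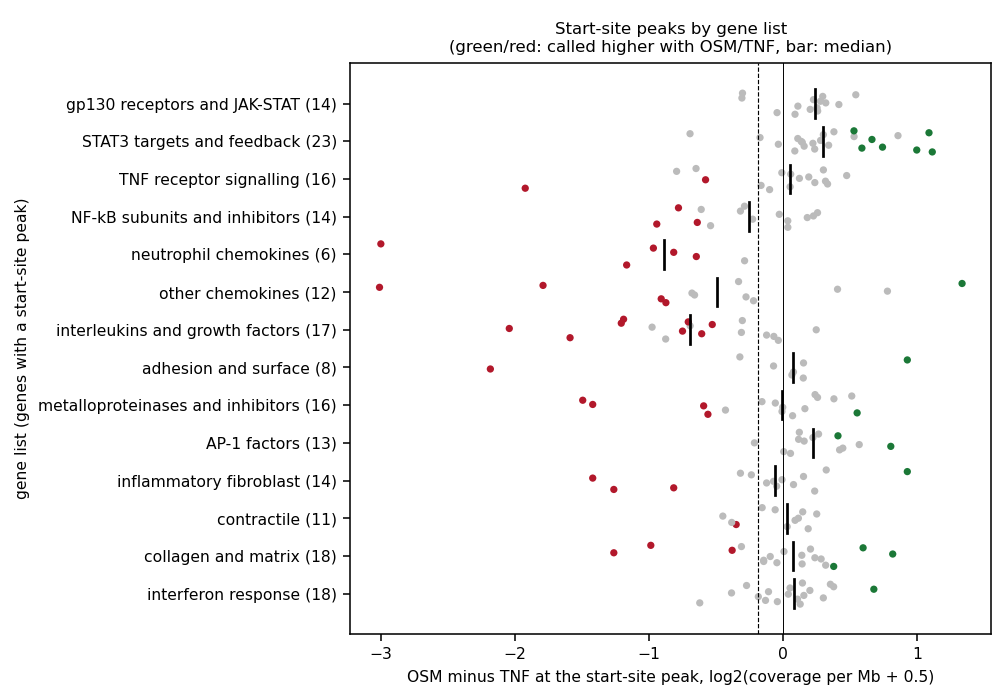
Difference in start-site accessibility, OSM minus TNF on the log2(coverage per Mb + 0.5) scale, for each gene of 14 lists, with the number of genes that have a start-site peak in brackets. Green points were called higher with OSM, red points higher with TNF and grey points neither; bars are list medians and the dashed line is the median of -0.186 over all tested peaks. Red points gather in the chemokine and interleukin lists, and 7 of 23 STAT3 targets are green.

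The called peaks differed in where they lay and in the letters they held. Promoter-class peaks made up 7.15% of tested peaks, 9.19% of the peaks called higher with OSM and 3.29% of those called higher with TNF, while distal peaks made up 34.5%, 32.0% and 39.9%. The median distance to a start site was 11530 bases for OSM calls, 15932 for TNF calls and 13056 over all tested peaks. Mean GC content was 46.5%, 45.5% and 46.7% in the same order.

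Short strings were counted on both strands of each peak, as a description of letters and not of bound sites. The STAT3 string TTCCNGGAA occurred in 2.29% of tested peaks, 5.09% of OSM calls and 1.62% of TNF calls, and in 13.8% and 1.84% of calls with a difference of at least 2. The looser GAS string TTCNNNGAA, which contains it, occurred in 17.2%, 23.3% and 15.8%, and in 41.3% and 17.5% of the calls of at least 2. The NF-κB consensus occurred in 8.48% of tested peaks, 4.38% of OSM calls and 27.3% of TNF calls, and in 2.43% and 62.1% of calls of at least 2. The AP-1 string TGANTCA occurred in 25.7% of tested peaks, 29.8% of OSM calls and 45.7% of TNF calls, and in 21.5% and 36.5% of calls of at least 2. Among tested peaks whose mean reached 1 per Mb its share was 30.8%, above that of the OSM calls. The C/EBP string TTGCNNAA occurred in 32.8% of OSM calls and 26.2% of TNF calls against 25.7%, and the TEAD string GGAATGT in 12.8% and 10.1% against 8.63%. For the IRF string the shares were 8.47% and 7.86% against 9.11%, and for the CTCF string 1.92% and 1.60% against 2.11%. Restricted to tested peaks whose mean reached 1 per Mb, the background was 2.11% for STAT3, 15.8% for GAS and 9.01% for NF-κB. It was 24.7% for C/EBP, 9.10% for TEAD, 7.84% for IRF and 3.01% for CTCF. Beside that background the TNF calls were level for the GAS and IRF strings, and the OSM calls were higher for the IRF string.

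The share of called peaks rose with the number of matches counted. Overlapping matches were counted apart, so 1 near-symmetrical NF-κB site can count as 2, as in the SLC36A3 peak. The number of sites and the symmetry of a site were not separated. Of peaks with 0, 1, 2 and at least 3 NF-κB strings, 2.57%, 9.32%, 15.5% and 19.4% were called higher with TNF. For the STAT3 string, 2.39% of peaks with no copy, 5.30% with 1 and 13.8% with 2 were called higher with OSM, the last being 28 of 203 peaks, and none of 7 peaks with more copies was called. Among the 10 peaks named towards OSM, 4 held a STAT3 string, 6 a GAS string and 1 an NF-κB string, and among the 10 named towards TNF none held a STAT3 string, 1 a GAS string and 8 an NF-κB string. Of the 4 with a STAT3 string, the IGSF23, CXCL17 and BRI3 peaks share stretches of identical letters, so they are not independent examples. The peaks without an NF-κB string in the second group were the CXCL8 and LOC100130476 peaks.

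**Figure D5:**
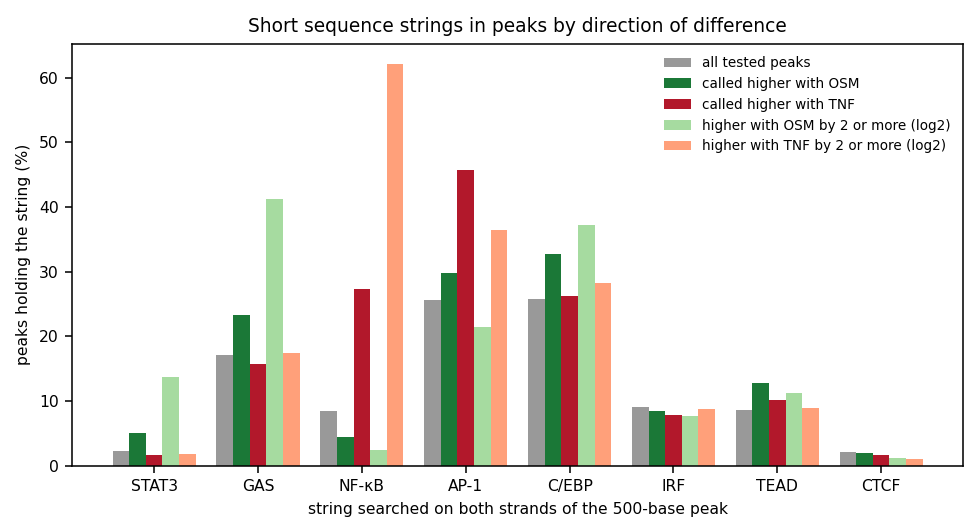
Share of peaks that hold each short string on either strand, in percent, among all tested peaks (grey), peaks called higher with OSM (dark green) or TNF (dark red), and called peaks with a difference of at least 2 on the log2 scale (light green, light red). The NF-κB bar reaches 62.1% in the largest TNF differences and 2.43% in the largest OSM differences, and the GAS bar 41.3% and 17.5% in the reverse order.

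The same split appeared in the coverage of each library without any calls or scaling between libraries. Peaks with a STAT3 string took 2.34 to 2.35% of all coverage in the 4 OSM libraries and 2.08 to 2.11% in the 4 TNF libraries, against 2.17 ± 0.0071% unstimulated (SD, n = 4). Peaks with an NF-κB string took 8.79 to 8.85% with OSM, 10.4 to 10.5% with TNF and 8.91 ± 0.0215% unstimulated. OSM lay just below the unstimulated mean and TNF above it. Peaks with an AP-1 string took 31.1 to 31.9% with OSM and 32.5 to 33.3% with TNF, both above the unstimulated 29.8 ± 0.0664%. Promoter-class peaks took 21.7 ± 0.260% with OSM and 19.6 ± 0.266% with TNF, and the 1% of peaks with the most coverage 15.6 ± 0.366% and 13.8 ± 0.0922%. For each of these 5 shares the 4 OSM and 4 TNF libraries did not overlap, and the exact two-sided permutation test gave p = 0.0286, the smallest that 4 against 4 allows (adjusted p = 0.0343 over 6 shares).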

How the data were processed

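ATAC-seq libraries of Ccd18-Co cells were made by the Omni-ATAC protocol. The authors aligned paired-end reads to hg38 with the ENCODE ATAC-seq pipeline and called peaks of variable width with MACS2. The signal that they deposited is unscaled: for each library, the read depth at every base added up over 407383 peaks of a fixed 500 bases, so it follows whole reads rather than cut sites. How the fixed peaks of this table were chosen is not stated in the sources used here. All 44 columns were matched to samples by the library number in the labels.

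The study used a count model. Coverage sums are not counts, so limma 3.58.1 (R 4.3.3) was used on log2(coverage per Mb of library total, after a trimmed-mean composition factor, + 0.5), with group as the only term over all 44 libraries and a mean-variance trend. Peaks with a log2 mean of -3 or below (209) were left out. A gene's start-site peak was the tested peak nearest to its GENCODE v44 start, at most 1 kb away. Of promoter-class peaks, 92.5% lay within 2 kb of one, against 12.6% of others.

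Peaks named by difference were called, had a mean of at least 1 per Mb and separate groups, and were the 10 largest per direction, 1 per deposited gene name. In each gene list up to 4 called members per direction are named, plus SOCS3, OSMR, CXCL8, TNFAIP3, NFKBIA, CXCL5, ICAM1, VCAM1, IL6, MMP1, PDPN and ACTA2. The comparison, lists and strings were chosen with earlier results of these data known. Shares were compared by exact permutation tests (scipy 1.17.1). Alternatives changed the scaling, pseudocount, filter, libraries, weights and replicate block. Treatment against unstimulated was fitted in the same model and serves as background only. Some sequences and 1 marker gene are not reported here.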

Additional observations from a re-analysis of the deposited data

Results flagged for a closer look

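In groups of 4 libraries, 14 values stood farther from their group than Dixon's 95% limit allows, out of 216 groups examined, of which chance flags about 1 in 20. Among whole-library measures these were the total coverage of TNF replicate 4 (726.6 Mb, others 373 to 389 Mb), its share of peaks without coverage (3.37%, others 9.34 to 10.3%) and the share of coverage in the top 1% of peaks in TNF replicate 3 (13.7%, others 13.8 to 13.9%). Among named peaks they were TNF replicate 2 at the SOCS3 peak (1.49 per Mb, others 0.574 to 0.662), at the LINC02399 peak (21.9, others 16.8 to 17.3) and at the ACTR8 peak (6.43, others 11.5 to 12.4), and OSM replicate 1 at the LOC100130476 peak (0.383, others 0). Among start-site peaks they were TNF replicate 1 at NFKB2 (28.7), CSF3 (4.69), COL7A1 (12.0) and CALD1 (45.4), OSM replicate 4 at MX2 (8.95, others 12.3 to 12.6), and unstimulated replicate 4 at MMP1 (8.42) and ADAMTS9 (18.4). None of the 20 named peaks lost its call when any 1 of the 8 libraries was left out. Without TNF replicate 4 the calls numbered 20183, of which 8899 were higher with OSM.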

How the results depend on the processing

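The 23167 calls became 36312 when only the 8 OSM and TNF libraries were fitted (21771 higher with TNF), 39873 with quality weights (15508 higher with OSM, 24365 with TNF) and 14713 when a difference of at least 1 was also required (4721 higher with OSM). The first 2 fits kept 23159 and 23161 of the calls; the causes were not tested. With the replicate number as a block the count was 23423 over 44 libraries, and 35961 over 8 libraries (21549 higher with TNF). Deviations of same-numbered libraries correlated at -0.0059 to 0.0021 over all tested peaks. Of these peaks 245328 had a mean under 1 per Mb, where counting error brings any correlation near 0. The check therefore cannot settle whether the numbers pair the libraries. Leaving out 1 library gave 18024 to 20183 calls (7781 to 8899 higher with OSM, 10131 to 11284 with TNF). The share of calls higher with OSM was 43.3%, and 33.4% to 50.1% over the scalings and the filter at 1 per Mb. With 3 against 4 libraries no exact test can pass, and the differences in shares were then 1.68 to 1.96 points for the top 1% of peaks, 2.02 to 2.22 for promoter-class peaks, 0.252 to 0.262 for STAT3-string, -1.68 to -1.64 for NF-κB-string and -1.67 to -1.34 for AP-1-string peaks. Of the alternatives run for named and start-site peaks, 77 lost a call (also where a difference of at least 1 was required), 7 gained one (OSMR) and none changed direction. Depth limits the peaks under 1 per Mb, where a few reads make up the value.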

Other observations

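The genes named here lie outside the lists and were picked for having many called peaks. Over all tested peaks, 2.46% were called higher with OSM and 3.23% higher with TNF. NAMPT, which encodes an enzyme of NAD synthesis, had 21 of 127 tested peaks called higher with OSM and 2 higher with TNF. KLF9, a transcription factor gene, had 20 and 3 of 141, and MALAT1, a nuclear noncoding RNA gene, 14 and 1 of 46. On the TNF side, KCNU1 had 18 of 96 tested peaks called higher with TNF and 3 higher with OSM. LINC02541 had 18 and 1 of 143, DEC1 17 and 1 of 96, and MIR3923 17 and 2 of 180. Of 23383 gene names in the deposited peaks, 9750 had a called peak, 3169 with calls higher with OSM alone, 3944 with calls higher with TNF alone and 2637 with both. THBS1 was among the last, with 33 peaks called higher with OSM and 6 higher with TNF of 132, and so was WTAP, with 4 and 34 of 186.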
